A study of Mus musculus with 37 samples.

Results

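The CTCF contacts of hippocampal excitatory neurons that joined anchors more than 2 Mb apart were examined on their own. They were taken from the deposited contact list by a single rule, a distance of over 2 Mb between the midpoints of the 2 anchors. The rule kept 262 of 27786 contacts. It used neither the read support of a contact nor its sequence. All contacts in the list lay within 1 chromosome, so no contact between chromosomes could be examined.

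The series compared control mice with mice that lost the histone demethylase Kdm1a in forebrain excitatory neurons (Kdm1a-ifKO). CTCF contacts were measured in 1 library only, by ChIA-PET, on sorted nuclei of Camk2a+ neurons from the hippocampus of WT males aged 12 weeks and treated with tamoxifen. These males carried the Camk2a-creERT2 driver and a Cre-dependent Sun1-GFP tag on the nuclear envelope, which was used for the sort. RNA-seq was made on whole hippocampus of 3 control males (WT) and 3 Kdm1a-ifKO males. The Kdm1a-ifKO males carried Camk2a-creERT2 and floxed Kdm1a alleles, the controls were littermates without the Cre driver, and both groups received tamoxifen at 8 weeks of age. Cre from this driver acts in forebrain excitatory neurons, so all other cells of the hippocampus keep Kdm1a in the RNA-seq samples. The contacts therefore describe WT neurons, have no replicate and no mutant counterpart, and allow no test between conditions.

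CTCF is a zinc finger protein that binds a directional DNA motif. Cohesin is thought to reel in chromatin until it meets CTCF sites whose motifs point towards each other, and such convergent pairs mark the base of a loop. ChIA-PET enriches the chromatin bound by a factor, ligates the DNA ends that lie close together and sequences both ends as a paired-end tag (PET). The number of PETs joining 2 anchors is the support for a contact. Ligation can also join ends that were not held together by the factor, and such pairs can span any distance.

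The CTCF motif at the anchors is shown for the contacts with the highest PET count, because its direction separates the contacts described below. Each sequence is from GRCm38 (RefSeq), is written 5′ to 3′ on the strand that carries the motif, and has the 12 bases that match the CTCF core consensus (at most 1 mismatch) in capitals. In these 3 contacts the motif of the left anchor was on the plus strand and that of the right anchor on the minus strand, so that the motifs faced each other.
chr5:5755229-5755280, plus strand, left anchor, 21 PETs: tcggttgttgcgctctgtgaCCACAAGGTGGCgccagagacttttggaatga
chr5:7996885-7996936, minus strand, right anchor, 21 PETs: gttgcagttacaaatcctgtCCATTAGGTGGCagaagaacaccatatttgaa
chr6:131513438-131513489, plus strand, left anchor, 21 PETs: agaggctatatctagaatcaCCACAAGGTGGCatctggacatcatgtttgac
chr6:133876179-133876230, minus strand, right anchor, 21 PETs: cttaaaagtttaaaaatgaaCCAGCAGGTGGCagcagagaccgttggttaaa
chr7:75910131-75910182, plus strand, left anchor, 16 PETs: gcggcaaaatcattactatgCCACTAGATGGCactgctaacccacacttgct
chr7:78766373-78766424, minus strand, right anchor, 16 PETs: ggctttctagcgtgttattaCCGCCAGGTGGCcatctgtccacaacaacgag

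Around Myc, the gene of a transcription factor that drives growth and proliferation, 3 contacts were tied at 8 PETs. In 1 of them, with anchors 2.64 Mb apart, the motifs faced each other. In the other two the strand at the left anchor could not be read.
chr15:61102552-61102603, plus strand, left anchor, 8 PETs: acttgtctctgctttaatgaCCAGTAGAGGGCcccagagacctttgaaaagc
chr15:63740729-63740780, minus strand, right anchor, 8 PETs: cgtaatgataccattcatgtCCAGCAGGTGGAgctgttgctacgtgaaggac

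Contacts over 2 Mb were weakly supported. They held 1067 of the 305716 PETs in the list, and 156 of the 262 (59.5%) had 3 PETs, the lowest count listed. Their median was 3 PETs and their maximum 21. Among the 2581 contacts of 500 kb to 2 Mb the median was 4, the maximum 251, and 35.6% had 3 PETs. Only 54 contacts over 2 Mb (20.6%) had 5 or more PETs, and 7 had 10 or more. The total number of PETs sequenced is not given in the sources used here, so the support could not be set against the depth of the library.

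The 2 Mb limit cut through a continuous range. The 3 contacts just above it spanned 2008626, 2021498 and 2023308 bp and had 3, 10 and 6 PETs. The 3 just below it spanned 1985531, 1981250 and 1976296 bp and had 15, 5 and 3 PETs. Above the limit the distances ran up to 153 Mb, the length of most of chromosome 2. There were 135 contacts of 2 to 5 Mb and 127 of over 5 Mb. This second limit, at 5 Mb, was among the alternatives to the 2 Mb rule. The median distance was 2.58 Mb in the first set and 24.3 Mb in the second.

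**Figure D1:**
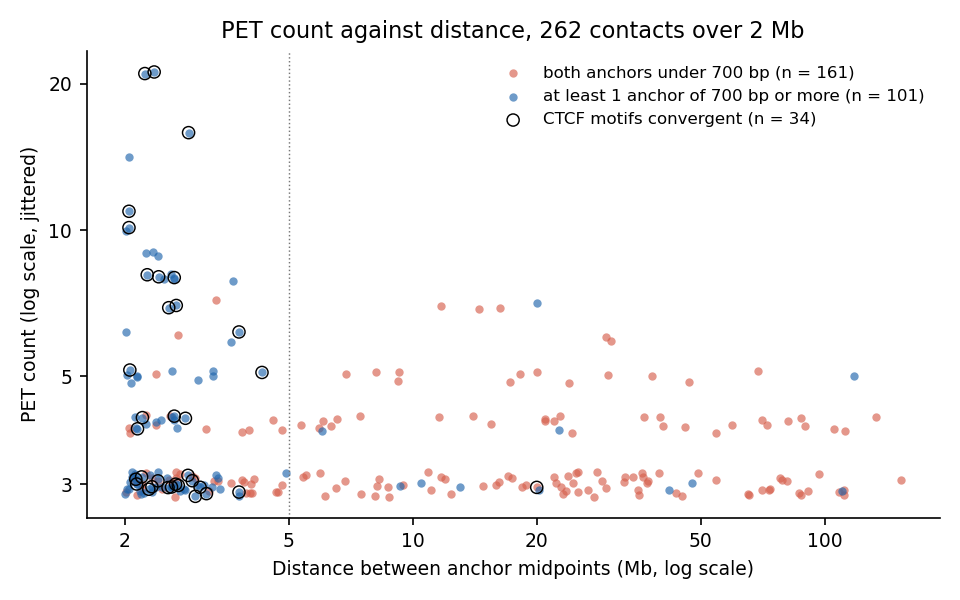
PET count (y, log scale) against the distance between anchor midpoints (x, log scale, in Mb) for the 262 contacts over 2 Mb, with points shifted slightly up or down so that equal counts can be seen. Blue points have at least 1 anchor of 700 bp or more, orange points have both anchors under 700 bp, and black rings mark convergent CTCF motifs. Counts above 7 PETs and 33 of the 34 rings lie left of the dotted line at 5 Mb.

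High support was confined to the shorter of these contacts. All 7 contacts with 10 or more PETs spanned between 2.02 and 2.86 Mb. Beyond 5 Mb the maximum was 7 PETs, reached by 4 contacts that spanned 11.7, 14.5, 16.3 and 20 Mb. The longest contact, of 153 Mb, had 3 PETs. It was followed by contacts on chromosomes 2, 1, 6 and 11 that spanned 133, 118, 112 and 111 Mb and had 4, 5, 4 and 3 PETs. Thus PET counts of 3 to 5 occurred at every distance.

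Anchors were narrower in the longest contacts. An anchor is the stretch of DNA covered by the tags of 1 end of a contact, so its width grows as tags start at more positions, and widths must be compared at an equal number of tags. In contacts of exactly 3 PETs the median anchor width was 936 bp at 500 kb to 2 Mb, 760 bp at 2 to 5 Mb and 627 bp over 5 Mb. Both anchors were under 700 bp, a limit set after the widths had been seen, in 20.2% of the 3-PET contacts of 500 kb to 2 Mb. The share was 41% (32 of 78) at 2 to 5 Mb and 91% (71 of 78) over 5 Mb. More PETs did not widen the anchors of the longest contacts. Of the 19 contacts over 5 Mb with 5 or more PETs, 17 (89.5%) had both anchors under 700 bp, against 3 of 35 (8.57%) at 2 to 5 Mb and 2.81% at 500 kb to 2 Mb.

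**Figure D2:**
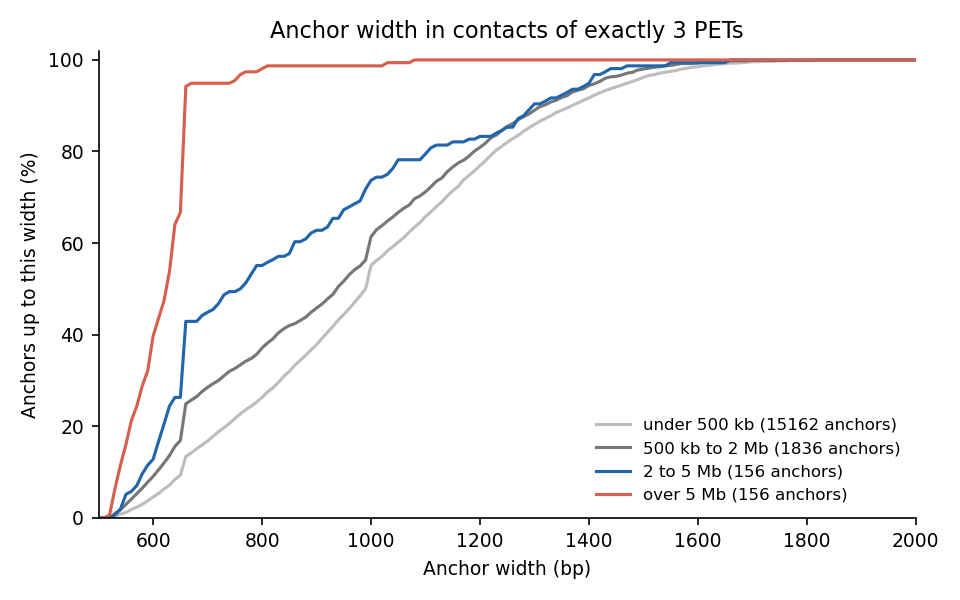
Cumulative share of anchors (y, in %) up to each width (x, in bp) in contacts of exactly 3 PETs, by distance between the anchors. The curve for contacts over 5 Mb climbs steeply up to about 650 bp, where the other curves have a smaller step. Apart from that step and another at 1000 bp, the curves for shorter contacts climb slowly, with a median of 936 bp at 500 kb to 2 Mb.

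Over 5 Mb the most frequent width was 651 bp, found at 41 of 254 anchors (16.1%), and the narrowest anchor measured 518 bp. At 2 to 5 Mb 651 bp was again the most frequent width (23 of 270 anchors), whereas over all contacts it was 1000 bp (1281 of 55572 anchors). How far each tag was extended to form an anchor is not given in the sources used here. Whether narrow anchors stem from tags that started at the same positions was not tested, since single tags were not analysed here.

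In all, 161 contacts over 2 Mb had both anchors under 700 bp and 101 had at least 1 wider anchor. At 2 to 5 Mb the narrow ones were 45 of 135 (33.3%, 95% Clopper-Pearson interval 25.5 to 42%) and over 5 Mb 116 of 127 (91.3%, 85 to 95.6%). At 500 kb to 2 Mb they were 271 of 2581 (10.5%, 9.34 to 11.7%). These intervals did not overlap. Here and below an interval covers counting error only, in a single library, and contacts that share an anchor are not independent. The 2 kinds also differed in read support. At 2 to 5 Mb, 35.6% of contacts with a wider anchor had 5 or more PETs, against 6.67% of narrow ones. The comparisons of the 2 kinds below pool all PET counts, so anchor width and read support cannot be told apart in them.

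The frequency of contacts fell with distance at a different pace for the 2 kinds. To allow for the growing number of places that could be joined, contacts were divided by the number of pairs of anchor blocks (anchors merged where they overlap) at that distance on the same chromosome. Contacts with a wider anchor fell from 2446 per 1000000 pairs at 1 to 2 Mb to 353 at 2 to 3 Mb, 49.7 at 3 to 5 Mb and 2.53 at 5 to 10 Mb. Narrow contacts went from 426 at 1 to 2 Mb to 123, 55.2 and 29.1 over the same steps. Between 2 to 3 Mb and over 50 Mb the first kind dropped 670-fold and the narrow kind 16.7-fold. Only 2 of the 25 contacts of 5 to 10 Mb, 7 of the 72 of 10 to 50 Mb and 2 of the 30 over 50 Mb had a wider anchor, so the far end of that curve rests on few contacts.

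**Figure D3:**
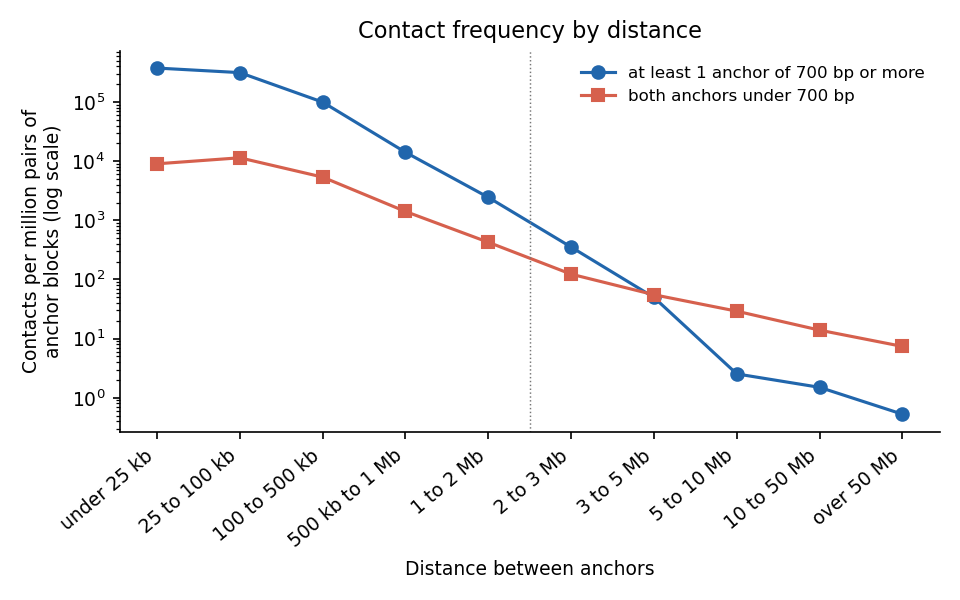
Contacts per 1000000 pairs of anchor blocks on the same chromosome (y, log scale) for 10 ranges of distance (x), for contacts with at least 1 anchor of 700 bp or more (blue circles) and with both anchors under 700 bp (orange squares). The dotted line marks 2 Mb. Blue lies above orange up to 3 Mb, meets it at 3 to 5 Mb and lies below it beyond 5 Mb.

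CTCF motifs faced each other in most contacts of 2 to 5 Mb that had a wider anchor and a motif strand that could be read at both anchors. A strand could be read at both anchors, that is, all best matches to the core consensus lay on 1 strand, in 50 of the 262 contacts. Of these 50, 34 (68%, interval 53.3 to 80.5%) were convergent, 13 tandem and 3 divergent. At 2 to 5 Mb, 33 of 43 were convergent (76.7%, 61.4 to 88.2%), close to the 81.3% (78.4 to 83.9%) at 500 kb to 2 Mb. Over 5 Mb only 7 contacts could be read, of which 1 was convergent, 5 tandem and 1 divergent.

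Split by anchor width, 32 of 35 contacts of 2 to 5 Mb with a wider anchor were convergent (91.4%, 76.9 to 98.2%) and none was divergent. None of the 11 contacts over 5 Mb with a wider anchor could be read. Of the 8 narrow contacts of 2 to 5 Mb that could be read, 1 was convergent (12.5%, 0.316 to 52.7%), 5 were tandem and 2 divergent. The 2 intervals did not overlap, but the wider set also had more PETs, and orientation at an equal PET count was not tested. The split was also present in the shorter contacts of 500 kb to 2 Mb, where 634 of 768 wider ones (82.6%, 79.7 to 85.2%) and 9 of 23 narrow ones (39.1%, 19.7 to 61.5%) were convergent. With an exact match demanded, 3 contacts over 2 Mb could be read and all 3 were convergent.

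**Figure D4:**
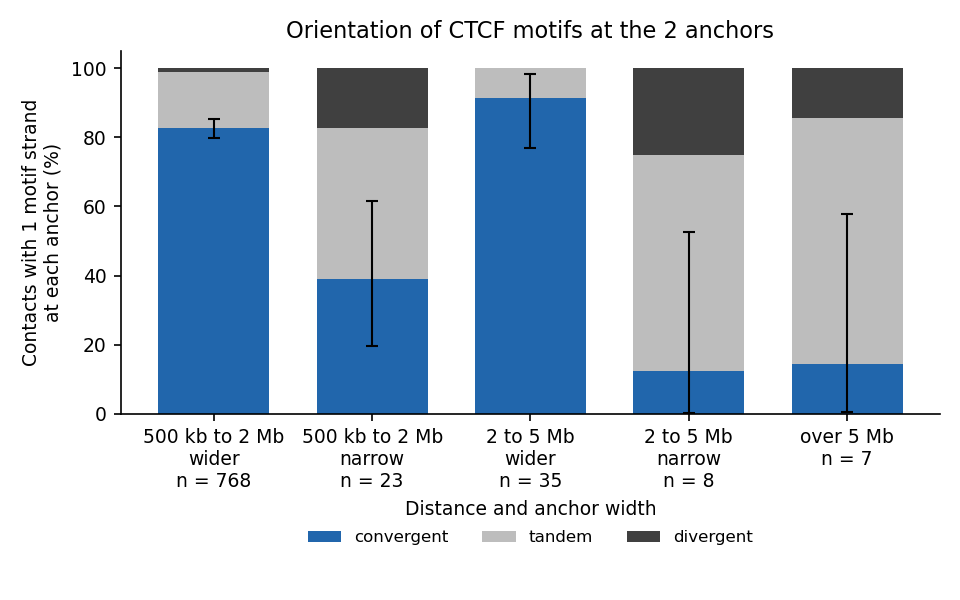
Share of contacts (y, in %) with convergent, tandem or divergent CTCF motifs among those with 1 motif strand at each anchor, by distance and by anchor width (narrow, both anchors under 700 bp, and wider). Error bars are 95% Clopper-Pearson intervals of the convergent share and n is the number of contacts. The convergent share is 82.6% and 91.4% in the wider sets and 39.1%, 12.5% and 14.3% in the narrow sets and over 5 Mb.

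A CTCF motif was less often present at the anchors of the longest contacts, and of narrow contacts at shorter distances as well. The core consensus, searched on both strands with at most 1 mismatch, was found in 214 of the 524 anchors of contacts over 2 Mb (40.8%). Windows of the same length placed 20 kb outside each anchor held it in 7.25%. The authors kept a contact only where both anchors overlapped a CTCF peak, and the higher share in the anchors cannot be told apart from that selection. At 2 to 5 Mb it was found in 51.9% of anchors, with 59.4% in contacts with a wider anchor and 36.7% in narrow ones. Over 5 Mb it was found in 74 of 254 anchors (29.1%), against 7.09% in the shifted windows. In narrow contacts of shorter distance the share was 34.9% at 500 kb to 2 Mb and 29.8% under 500 kb. A wider anchor offers more bases for a match, which these shares do not allow for, although the shifted windows held it in 7.78% and 6.67% for the wider and narrow sets of 2 to 5 Mb.

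Neighbouring contacts were found beside contacts of 2 to 5 Mb but not beside those over 5 Mb. Another contact lay within 50 kb at both anchors for 29 of the 135 contacts of 2 to 5 Mb (21.5%, 14.9 to 29.4%) and for 0 of the 127 over 5 Mb (interval up to 2.86%). Of those 29, 28 had a wider anchor, or 31.1% of that set (21.8 to 41.7%), and 1 was narrow, or 2.22% (0.0562 to 11.8%). At 500 kb to 2 Mb the share was 56.3%, and it fell there too with narrow anchors, from 60.3% to 22.1%. Within 200 kb the counts over 2 Mb rose to 45 at 2 to 5 Mb and remained 0 over 5 Mb. The density of contacts falls with distance, and its part in these shares was not tested.

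The 29 contacts that ran alongside others formed 13 groups, each joining the same 2 places. A group at Grid1, a glutamate receptor subunit of the delta type, held 3 contacts with 14, 11 and 3 PETs. One at Myc held 3 contacts with 8, 8 and 7 PETs, and a 2.49 Mb contact with 8 PETs lay within the same interval. The group at the cadherin gene Fat1 held 3 contacts of 3.79 Mb with 6, 3 and 3 PETs. The other 10 groups held 2 contacts each, among them those around Zfp804b (21 and 9 PETs), Agbl1 and Ntrk3 (16 and 3), Fbxl4 and Pou3f2 (10 and 6) and Fat3 (8 and 5).

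Recurrent anchors were few. The anchors of the contacts over 2 Mb fell into 480 blocks, of which 449 held 1 such contact, 31 held 2 or more and 10 held 3 or more. The most was 4, at chr8:45231958-45241896, chr15:61100966-61103120 and chr10:103442019-103443696. At the chromosome 10 block all 4 contacts of the block were over 2 Mb, with 17 PETs in total, and they enclosed Tmtc2, the gene of an endoplasmic reticulum protein. At the chromosome 8 block the 4 were among 8 contacts and 210 PETs. No block held more than 2 contacts over 5 Mb, and 5 of 249 blocks held 2. In all, 44 of the 135 contacts of 2 to 5 Mb (32.6%) and 10 of the 127 over 5 Mb (7.87%) shared an anchor with another contact over 2 Mb.

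Anchors of the longest contacts mostly served shorter contacts as well. Of the anchors over 5 Mb, 14.6% had no other contact in the list and the median anchor had 19 PETs in its other contacts. At 2 to 5 Mb 29.3% of anchors had no other contact and the median was 7.5 PETs. For the wider contacts of 2 to 5 Mb these values were 33.3% and 6 PETs, and for the narrow ones 21.1% and 15 PETs. At 500 kb to 2 Mb they were 16.5% and 15 PETs.

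The contacts with the highest support enclosed few genes. The chromosome 5 contact with 21 PETs, chr5:5754098-7998347, spanned 2.24 Mb and enclosed 3 protein-coding genes, Zfp804b, Tex47 and Steap4, of which Zfp804b took up 25.7% of the distance. The chromosome 6 contact with 21 PETs, chr6:131511610-133877262, was an exception, with 33 protein-coding genes, 24 of them bitter taste receptors of the Tas2r family. The contact with 16 PETs, chr7:75908780-78767458, enclosed Agbl1 and Ntrk3, the receptor of neurotrophin 3. The contacts with 14 and 11 PETs on chromosome 14 enclosed 3 genes, with Grid1 taking up 37.2% of the distance.

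A 10-PET contact on chromosome 4, 2.02 Mb long, enclosed Fbxl4 and Pou3f2, a neural POU transcription factor. Another with 10 PETs on chromosome 6 enclosed 6 genes, among them Fam19a1 and Suclg2. Among those with 9 PETs, 1 enclosed Fstl5 alone and had no other contact at either anchor. The other two differed from it. The chromosome 5 contact from the start site of Steap1 ended at the block joined by the 21-PET contact and had tandem motifs. The chromosome 17 contact enclosed 34 genes and 87 contacts, and its anchors of 803 and 572 bp carried no match to the core consensus. A contact of 3.66 Mb with 8 PETs enclosed Nr2f2, an orphan nuclear receptor, and 2 other genes.

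Wider and narrow contacts of the same distance also differed in the number of genes they enclosed. Contacts of 2 to 5 Mb with a wider anchor enclosed a median of 3 protein-coding genes, or 0.989 per Mb, and 60 of the 90 (66.7%) enclosed at most 3. Narrow contacts of the same distance enclosed a median of 31, or 9.78 per Mb, and 5 of 45 (11.1%) enclosed at most 3. At 500 kb to 2 Mb the medians were 1.81 and 5.61 per Mb for wider and narrow contacts. Over 5 Mb the median was 11 per Mb. Contacts nested inside followed this order, with medians of 0.78 and 13.6 per Mb in the wider and narrow sets of 2 to 5 Mb.

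Most anchors did not lie at promoters. No contact over 2 Mb had an annotated transcription start site inside both anchors and 28 (10.7%) had one inside 1 anchor. Over all contacts the shares were 1.4% and 18%, and at 500 kb to 2 Mb they were 0.387% and 9.96%. The share with a start site inside 1 anchor was 7.41% at 2 to 5 Mb and 14.2% over 5 Mb. A narrower anchor offers fewer bases for a start site, which these shares do not allow for. Of the 524 anchors, 260 were intergenic, 151 intronic, 85 overlapped an exon without a start site and 28 held a start site. At 2 to 5 Mb 60% were intergenic, against 38.6% over 5 Mb and 51.9% at 500 kb to 2 Mb. With start sites allowed up to 10 kb away, 71 contacts (27.1%) had a gene at both anchors. These were 24 at 2 to 5 Mb (17.8%) and 47 over 5 Mb (37%). The share was 13.8% at 500 kb to 2 Mb and 32.2% over all contacts, so by this measure the longest contacts were not poor in genes.

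Repeated sequence was not a general feature of the anchors. The soft-masked share, which marks interspersed and simple repeats in the assembly, had a median of 17.6% over 2 Mb and 17% over all contacts. Anchors masked over more than 50% of their length were more frequent over 2 Mb, at 9.92% against 4.17% of all anchors, with 17.8% in the narrow and 6.67% in the wider contacts of 2 to 5 Mb. In narrow contacts of shorter distance the share was 9.96% at 500 kb to 2 Mb and 12.4% under 500 kb. None of the 262 contacts joined 2 anchors that shared a stretch of at least 100 bp with at least 80% identity (interval up to 1.4%), and 22 of the 2581 contacts of 500 kb to 2 Mb did (0.852%, 0.535 to 1.29%), so that the intervals overlapped. A near-identical copy elsewhere in the assembly, with at least 95% identity over at least 80% of the anchor, was found for 3 of the 524 anchors. It was found for 0 of 1034 anchors drawn from contacts of 500 kb to 2 Mb. The search started only from unmasked bases. How tags that match several places were treated is not given in the sources used here, and whether that lowered these counts was not tested. For 2 anchors the search returned no match at all, not even the anchor itself, so a copy of them could not be seen.

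Few genes of any kind started at the anchors, 29 of 55450 annotated genes inside one and 422 within 10 kb. Of 4150 genes of repeated families, such as olfactory receptors, zinc finger genes and keratins, 0 had their start site inside an anchor and 21 had it within 10 kb. Of 346 developmental transcription factor genes, 0 started inside an anchor and 4 within 10 kb, namely Bcl11a, Foxa3, Nkx6-3 and Sox9. Inside the wider contacts of 2 to 5 Mb lay 435 of all 21951 protein-coding genes. They included 122 of the repeated genes, among which were clusters of taste receptors, keratins, Mrgpr receptors, olfactory receptors and Ifi genes. Of the transcription factor genes, 10 lay there. The X chromosome had 55 contacts in all, against 708 or more on each autosome, and 0 over 2 Mb. The 6 X-linked repeat loci, such as Firre and Xist, therefore could not be at an anchor.

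By chromosome, the contacts over 2 Mb were 0 to 27 in number and 0 to 1.62% of all contacts. Chromosomes 7 and 11 had 27 each, chromosome 6 had 23 and chromosome 2 had 22. On chromosomes 8 and 10 most were of 2 to 5 Mb (15 of 20 and 13 of 14), and on chromosomes 11 and 7 most were over 5 Mb (19 and 18 of 27). Per 1000000 pairs of anchor blocks, contacts of 2 to 5 Mb were most frequent on chromosomes 8 (584), 10 (555) and 6 (474) and least on chromosome 11 (109) among the autosomes. Contacts over 5 Mb were most frequent on chromosomes 15 (31.3) and 17 (25.4), and chromosome 16 had none. Most of these rates rest on fewer than 15 contacts.

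**Figure D5:**
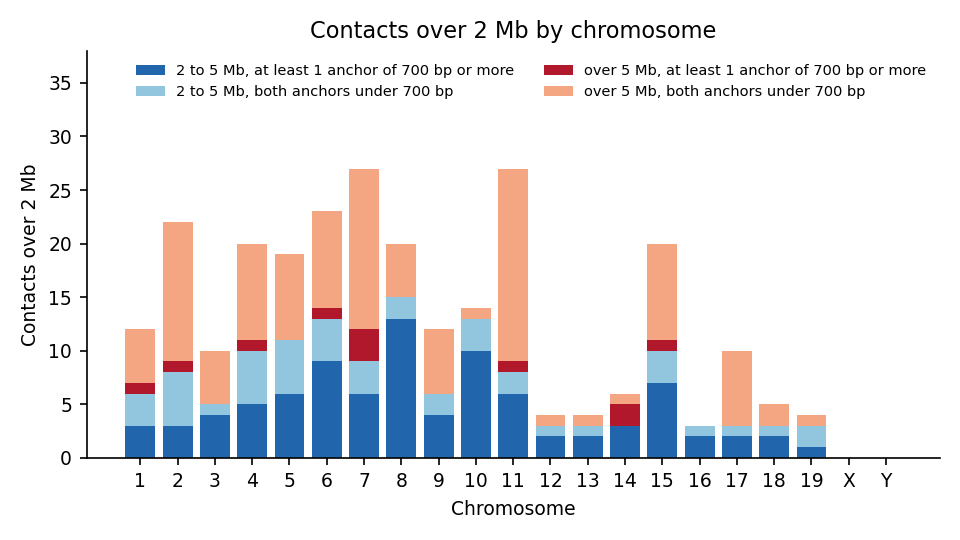
Number of contacts over 2 Mb (y) on each chromosome (x), stacked by distance and anchor width as given in the key. Dark blue, the contacts of 2 to 5 Mb with a wider anchor, leads on chromosomes 8 and 10, whereas light orange, the narrow contacts over 5 Mb, leads on chromosomes 7 and 11.

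The RNA-seq samples give the activity of the genes at and inside these contacts. The 6 libraries held between 18985542 and 19469947 counts. Kdm1a itself was at 79.5, 81.1 and 79.6 CPM (counts per 1000000 counts) in the controls and at 39.3, 36.9 and 38.4 in Kdm1a-ifKO. All mutant samples were lower, by 1.07 on the log2 scale (SE 0.0559, adjusted p = 6.24e-08, edgeR quasi-likelihood test), and the RNA left includes that of cells without Cre. Of 16799 genes tested, 6.04% were higher and 2.82% lower in Kdm1a-ifKO at an adjusted p under 0.05, or 8.85% in all. In whole tissue fewer cells of a type and less RNA per cell cannot be told apart.

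Genes that started inside an anchor were for the most part expressed in the hippocampus. Of 29 such genes, 26 were in the count table, 21 passed the filter on low counts, and 21 were above 1 TPM (transcripts per 1000000, a level per length) in the controls, with a median of 8.12 TPM over the 26. Among them was Got2, the gene of a mitochondrial aminotransferase. One gene was higher and one was lower in Kdm1a-ifKO, or 9.52% of the 21 tested, beside 6.04% and 2.82% (8.85% together) of all genes tested. The medians of the log2 fold change were 0.07 over the 21 tested and -0.0034 over all genes tested.

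The gene that was higher was Hic1, a zinc finger repressor of transcription. It stood at 2.88, 3.31 and 2.36 CPM in the controls and at 4.42, 5.79 and 5.44 CPM in Kdm1a-ifKO. The 2 groups did not overlap, and the log2 fold change was 0.87 (SE 0.178, adjusted p = 0.00845, edgeR). Its start site lay in an anchor of a 22.8 Mb contact with 4 PETs and both anchors under 700 bp.

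The gene that was lower was Flrt2, a cell surface protein of axon guidance. It stood at 47.0, 46.8 and 59.7 CPM in the controls and at 33.5, 39.7 and 37.9 CPM in Kdm1a-ifKO. The groups did not overlap, and the log2 fold change was -0.47 (SE 0.103, adjusted p = 0.0221, edgeR). The call was lost without the first or the third Kdm1a-ifKO sample (adjusted p = 0.0692 and 0.0601). Its start site lay in an anchor of a 2.14 Mb contact with 3 PETs and anchors of 759 and 1352 bp.

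At contacts with 5 or more PETs, 6 genes had a start site in an anchor. Gm38563 and Gm41336, at 8-PET contacts around Myc, were not in the count table. Steap1, a gene of the STEAP family of membrane proteins at the 9-PET contact on chromosome 5, had between 0 and 5 counts in the 6 libraries and was not tested. Got2 and Fras1, a basement membrane protein gene, lay at 7-PET contacts of 11.7 and 14.5 Mb. Their log2 fold changes were 0.07 (SE 0.0573, adjusted p = 0.473, edgeR) and -0.14 (SE 0.112, adjusted p = 0.49). Etv6, the gene of an ETS family transcription factor at a 5-PET contact of 9.29 Mb, had a log2 fold change of 0.13 (SE 0.083, adjusted p = 0.35, edgeR). Of genes that started within 10 kb of an anchor, 14 of 204 tested were higher and 6 lower, or 9.8%, beside 8.85% of all genes tested.

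Genes inside the wider contacts of 2 to 5 Mb were weakly expressed. Of the 435 protein-coding genes they enclosed, 201 (46.2%) passed the filter on low counts and 185 (42.5%) were above 1 TPM in the controls, with a median of 0.225 TPM. For the 1777 genes inside the narrow contacts of the same distance the median was 7.6 TPM and 64.9% of those in the count table were above 1 TPM, and for all protein-coding genes these values were 6.7 TPM and 64.1%. The 435 genes include clusters of receptor and keratin genes, whose members are not independent. A single contact on chromosome 11 with 3 PETs enclosed 140 of the 435, whereas the median contact of this set enclosed 3. Of the 201 tested, 11 were higher and 7 lower in Kdm1a-ifKO (8.96%, against 9.88% of all protein-coding genes tested). Inside the narrow contacts 114 of 1166 tested genes were higher and 18 lower (11.3%). Over all 14428 protein-coding genes tested, 971 were higher and 454 lower.

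The genes inside the best supported contacts ranged from silent to strongly expressed. Ntrk3 had 271, 269 and 305 CPM in the controls and 276, 250 and 238 CPM in Kdm1a-ifKO, with overlapping groups. Grid1 had 79.2, 86.8 and 77.9 CPM in the controls and 91.2, 88.6 and 85.3 CPM in Kdm1a-ifKO, and the log2 fold change was 0.12 (SE 0.0584, adjusted p = 0.225, edgeR). Myc had 5.86, 5.57 and 5.27 CPM against 5.96, 6.19 and 5.85 CPM, with a log2 fold change of 0.11 (SE 0.129, adjusted p = 0.653, edgeR). Zfp804b had between 0 and 5 counts in each library and Agbl1 likewise, and neither was tested. Pou3f2, Nr2f2, Fstl5 and Tmtc2 had log2 fold changes of 0.02, 0.1, -0.07 and -0.09 and did not pass the test. Nor did Fbxl4 (-0.09), Suclg2 (0.24), Fat1 (0.01) and Fat3 (-0.21, adjusted p = 0.0576, edgeR).

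Fam19a1, the gene of a secreted protein of the TAFA family inside the 10-PET contact on chromosome 6, was lower. It stood at 56.4, 56.4 and 64.1 CPM in the controls and at 48.5, 43.4 and 48.0 CPM in Kdm1a-ifKO. The groups did not overlap, and the log2 fold change was -0.34 (SE 0.0699, adjusted p = 0.00862, edgeR).

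The list of CTCF and cohesin genes was mostly expressed in the hippocampus. Ctcf had 81.8, 85.7 and 84.2 CPM in the controls and 86.3, 76.9 and 86.2 CPM in Kdm1a-ifKO, with overlapping groups. Rad21, the cohesin subunit cut at mitosis, had a log2 fold change of 0.0. Of 17 genes of this list, 16 were tested with edgeR, 0 were higher and 1 was lower, beside 6.04% higher and 2.82% lower among all genes tested. Cdca5, which stabilises cohesin on replicated DNA, had 3, 1 and 2 counts in the controls and 0, 0 and 2 in Kdm1a-ifKO and was not tested. The gene that was lower was Pds5b, a regulator of cohesin release, at 115, 121 and 147 CPM against 99.8, 99.3 and 100 CPM. Its log2 fold change was -0.36 (SE 0.08, adjusted p = 0.0199, edgeR). The call was lost without the first or the third Kdm1a-ifKO sample (adjusted p = 0.071 and 0.0547). Whether contacts differ in Kdm1a-ifKO was not tested, since no ChIA-PET library of these mice was analysed here.

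Some markers of astrocytes and microglia were higher in Kdm1a-ifKO. The summed level of 4 astrocyte markers was 1352 to 1478 CPM in the controls and 1625 to 1805 CPM in Kdm1a-ifKO, and that of 4 microglia markers 148 to 166 and 174 to 219 CPM. Among them 1 of 4 and 2 of 4 were higher, beside 6.04% of all genes tested. Of 7 excitatory neuron markers, 2 were lower, beside 2.82% of all genes tested, and the sums overlapped (6653 to 6991 and 6584 to 7282 CPM). No marker of interneurons (5), oligodendrocytes (4), endothelium (3) or choroid plexus and ependyma (3) passed the test. The part of these shifts in the values of Hic1 and Flrt2 was not tested.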

How the data were processed

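Contacts came from the deposited ChIA-PET table, which gives 2 anchors and a PET count per contact. The authors sequenced 1 library, processed it with ChIA-PIPE on mm10 and deposited whole-number counts of at least 3 PETs, for contacts whose 2 anchors each overlapped a CTCF peak called in the same library. Anchor start sites came from GENCODE annotation and sequence and repeat masking from GRCm38 (RefSeq), and all anchors lay within its chromosomes. The RNA-seq table held the authors' raw counts per gene (cutadapt 1.18, HISAT2 2.1.0, HTSeq 0.11.1, per the labels). Strand use in counting is not given in the sources used here, so overlapping genes may share reads.

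RNA-seq was tested with edgeR 4.0.16 (TMM, filterByExpr, quasi-likelihood test, Benjamini-Hochberg adjustment over all genes tested), with DESeq2 1.42.0 as an alternative. TPM values were computed from the counts and exon lengths. The test recovered known changes in simulated counts, and the contact functions were checked on simulated contacts. p-values measure the spread among 3 samples a group. Replicate numbers were used only as names. Anchors were compared with blastn 2.17.0, and other steps were run in Python 3.11.15 with intervals from scipy 1.17.1.

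Contacts named were the 10 with most PETs, the longest, those next to 2 Mb and those at the most used blocks. Genes named had start sites in an anchor and an adjusted p under 0.05, lay at or inside a named contact, or were in the lists. Got2, Fras1, Etv6, Fat1, Fat3 and Nr2f2 and their contacts lay outside this rule and were named after their values had been seen. The members and lists were chosen with earlier results of these data known. The second limit of 700 bp for anchors was set after the widths had been seen, and genes inside contacts were likewise added later.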

Additional observations from a re-analysis of the deposited data

How the results depend on the processing

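Measured between inner anchor edges, all 6 contact results were as reported. With at least 5 PETs, 54 contacts remained over 2 Mb, with a median of 6 PETs, of which 13 were convergent, 14 shared an anchor and 13 had a neighbour, counted among contacts of at least 5 PETs. With at least 10 PETs the values were 7, 14, 5, 2 and 2. With a limit of 5 Mb there were 127 contacts, 1 convergent, 8 sharing an anchor and 0 with a neighbour. Of the 262, 101 had at least 1 anchor of 700 bp or more, an alternative chosen after seeing the data. These held 32 of the 34 convergent contacts. Start sites within 10 kb gave 71 contacts with a gene at both anchors in place of 0, an exact motif gave 3 convergent contacts, and a margin of 200 kb gave 45 with a neighbour.

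Without a filter on low counts 1090 genes were lower in Kdm1a-ifKO in place of 473. Same-numbered samples deviated from their group means with correlations of -0.0326, -0.0911 and -0.148, so the numbers were not taken to pair them. The replicate number as a block gave 249 lower genes and moved no other RNA count by over 1.5 times. The log2 fold change of Kdm1a was -1.07 with the block. Leaving out 1 sample at a time gave 646 to 876 genes higher (1014 with all) and 137 to 584 lower, the fewest without the third Kdm1a-ifKO sample. Without the first, 164 were lower. Genes at anchors that were lower numbered 0 to 1. The count was 0 without the first or the third Kdm1a-ifKO sample, where 2 and 1 were lower at an unadjusted p under 0.05. Within 10 kb of an anchor 14 of 204 tested genes were higher and 6 lower, or 9.8% beside 8.85% of all genes tested. At contacts of at least 5 PETs 0 of 3 tested genes were higher and 0 lower (edgeR, 0 at an unadjusted p under 0.05, and 0 by DESeq2).

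The contacts rest on 1 library of unstated depth. Contacts of 3 PETs make up 59.5% of those over 2 Mb, orientation could be read in 50 of 262, and no shared counts between replicates exist to show which would be found again.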

Other observations

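Spint1, a serine protease inhibitor gene at 2.04, 2.73 and 2.85 CPM in the controls and 32.6, 33.3 and 35.1 CPM in Kdm1a-ifKO, had its 3′ end in an anchor of a 29.7 Mb contact on chromosome 2. The contact had 5 PETs, anchors of 651 and 587 bp, no readable pair of motifs and no neighbour within 50 kb. It was chosen after its values had been seen.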
